A study of Mus musculus with 5 samples.

Results

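DNA methylation in mice is set by the de novo enzymes Dnmt3a and Dnmt3b, for which the inactive relative Dnmt3l is a cofactor, and is copied at each replication by Dnmt1, which Uhrf1 guides to hemimethylated CpG sites. The dioxygenases Tet1, Tet2 and Tet3 oxidize methylated cytosine, a first step of its removal, and Mbd2 is a reader that binds methylated CpG and recruits a repressor complex. In the blood system, loss of Dnmt3a or Tet2 is known to expand the HSC pool, and both genes are frequently mutated in human clonal hematopoiesis. These 9 genes were followed in Atxn1L null and WT hematopoietic stem cells (HSCs), through every probe set of the array that the annotation assigns to exactly 1 of them. These are 9 of the 18193 genes that have a probe set of their own, read by 22 of the 45101 probe sets on the array, with 5 for Dnmt3a, 4 for Tet1, 3 for Dnmt1, 2 each for Dnmt3b, Uhrf1, Tet2 and Mbd2, and 1 each for Dnmt3l and Tet3. No probe set carried a member together with another gene.

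The study compared HSCs of Atxn1L null mice, which lack the ataxin-1-like protein in all their cells, with HSCs of WT mice, both on the C57Bl/6 background and 6 to 8 weeks old by the sample labels. HSCs were sorted from bone marrow as lineage-negative, Sca-1+, c-Kit+, CD150+ cells of the side population, which exports Hoechst dye, and were pooled for each array, with the number of mice per pool not stated in the sources used here. Amplified RNA of 2 null pools and 3 WT pools was hybridized to Affymetrix arrays, and the authors' GCRMA values are on the log2 scale, so that a difference of 1 is a 2-fold change. The pools are the replicates, and whether they came from separate animals is not given, so every p-value measures the spread between these pools.

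The arrays had medians between 3.03 and 3.07, a closeness that the quantile normalization of the deposited values sets. The deleted gene, Atxn1l, had 3.23 and 3.65 in null HSCs against 6.31, 6.52 and 5.74 in WT HSCs on 1455507_s_at. Of 7 measured HSC markers, 6 reached an average of 5 in null or WT HSCs, with Procr at 13.23 and 13.54 in null HSCs and at 13.55, 13.64 and 13.54 in WT HSCs. The exception was Slamf1, which encodes the CD150 used for the sort and averaged 3.89 in null and 3.92 in WT HSCs. Of 8 measured markers of cells outside the gate, Flt3 alone reached 5 (5.66 and 5.82 in null, 5.71 to 5.86 in WT HSCs), and none of either list passed the criterion used below. The arrays measured a pool of cells, where fewer cells with a transcript cannot be told apart from less transcript per cell.

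Dnmt3a has the most probe sets among the members, and RefSeq places it at chr12:3801559-3914443 (GRCm38.p6) with 3 promoter windows. The annotation does not say which of its transcripts each probe set reads. Of the 3 windows, those with the most and the fewest CpG are shown, each of 300 bases that run from 250 before to 50 after the start, with every CpG, the substrate of these enzymes, in capitals. Dnmt1 and Uhrf1 are shown by the window that holds a match to the E2F motif, in capitals, since E2F factors drive genes of S phase and these are the maintenance genes of the group.
Dnmt3a, chr12:3806910-3807209, plus strand: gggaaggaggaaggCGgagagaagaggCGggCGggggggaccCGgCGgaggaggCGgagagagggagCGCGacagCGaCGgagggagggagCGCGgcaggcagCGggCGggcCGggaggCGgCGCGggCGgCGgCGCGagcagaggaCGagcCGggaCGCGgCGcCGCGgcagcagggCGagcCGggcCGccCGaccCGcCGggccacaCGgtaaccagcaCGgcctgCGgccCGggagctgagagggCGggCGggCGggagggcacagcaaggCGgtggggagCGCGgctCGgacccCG
Dnmt3a, chr12:3891494-3891793, plus strand: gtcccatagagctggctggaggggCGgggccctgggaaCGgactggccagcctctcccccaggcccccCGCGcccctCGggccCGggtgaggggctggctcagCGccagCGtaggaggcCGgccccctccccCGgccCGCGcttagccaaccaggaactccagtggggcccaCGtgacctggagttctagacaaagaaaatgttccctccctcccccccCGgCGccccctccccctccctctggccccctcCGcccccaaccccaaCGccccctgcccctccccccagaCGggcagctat
Dnmt1, chr9:20952574-20952873, minus strand: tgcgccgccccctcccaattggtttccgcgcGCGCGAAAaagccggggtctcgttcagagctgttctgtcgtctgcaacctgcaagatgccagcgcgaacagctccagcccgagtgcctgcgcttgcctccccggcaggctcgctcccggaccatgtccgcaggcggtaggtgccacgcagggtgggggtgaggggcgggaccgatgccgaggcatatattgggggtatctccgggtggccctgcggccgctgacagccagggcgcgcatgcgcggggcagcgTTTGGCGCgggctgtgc
Uhrf1, chr17:56304063-56304362, plus strand: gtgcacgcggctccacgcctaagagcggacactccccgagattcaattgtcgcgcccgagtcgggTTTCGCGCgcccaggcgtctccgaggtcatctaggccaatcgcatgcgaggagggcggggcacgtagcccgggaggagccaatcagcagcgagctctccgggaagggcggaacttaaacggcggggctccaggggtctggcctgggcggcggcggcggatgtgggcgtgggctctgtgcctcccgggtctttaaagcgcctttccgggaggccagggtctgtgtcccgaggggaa

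The first Dnmt3a window shown holds 47 CpG and the second 18, against a median of 7 over the 32851 RefSeq promoter windows of the same length. Across the 15 windows of 8 member genes the count ran from 2 to 57, highest at Tet2 and lowest at one of the 3 Dnmt1 starts, and 7 windows lay above the upper quartile of 20. Member windows on chromosome 18, where Mbd2 lies, were left out, so Mbd2 is not among the 8. The 3 Dnmt3l windows, of a gene known mainly from germ cells, held 6, 4 and 3. The E2F words searched were TTTCCCGC, TTTCGCGC, TTTGCCGC and TTTGGCGC on either strand, which 2.26% of all windows contain and which 2 of the 15 member windows contain, the Dnmt1 and Uhrf1 windows shown. Capicua, the repressor with which ataxin-1 proteins form a complex, binds words of the kind TGAATGAA, TGAATGGA, TCAATGAA and TCAATGGA. These were searched on either strand as well, and are found in 3.84% of all windows and in 0 of the 15. A match describes the letters of a window only. Every E2F word holds a CpG, and 11 of the 15 member windows lay above the median CpG count. The 2.26% over all windows is therefore not a like share for the E2F words. No Capicua word holds a CpG, so the 3.84% is not a like share for these windows either.

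Of the 22 member probe sets, 1 met the criterion, a p no higher than 0.05 together with a change of 1.5-fold or more. These thresholds are the study's. Its methods mention a correction for false discovery but do not say whether the p of this criterion was adjusted. The thresholds were applied here to the unadjusted limma p. The 1 passing probe set belonged to Dnmt3a and was lower in Atxn1L null HSCs. Over all 45037 probe sets tested, 2.38% passed in either direction, 1.25% as lower and 1.13% as higher, and 1 of 22 is near that background. By adjusted p, with Benjamini-Hochberg adjustment of the limma values over the whole array, 0 of the 22 were under 0.05 (the lowest was 0.712), as against 0.00222% of all probe sets. By unadjusted p, 2 were at or under 0.05, as against 5.59%. The median log2 difference, null minus WT, was -0.0015 over the 22 and -0.0025 over all probe sets. In 5 of the 22 the null values lay wholly above (3) or below (2) the WT values, against 14.2% of all probe sets. An exact test of 2 pools against 3 cannot give a p below 0.1.

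Signal, taken as an average of 5 or more in null or WT HSCs, was present for 14 of the 22 probe sets, from 6 genes. Of these 14, 1 passed and 5 had separate genotypes, against 7.44% and 33.0% of all probe sets with signal, and their median difference was 0.16 against 0.0092. The other 8 read between 2.19 and 3.14 on every array and differed by -0.12 to 0.0042. They included all probe sets of Tet1, Tet3 and Dnmt3l and 1 each of Uhrf1 and Mbd2. At such signal a transcript that is absent and one that the probe set detects poorly look alike. The values are also coarse, and 9 of the 22 probe sets had a value that was exactly the same on a null and a WT array, as 26.0% of all probe sets did.

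**Figure D1:**
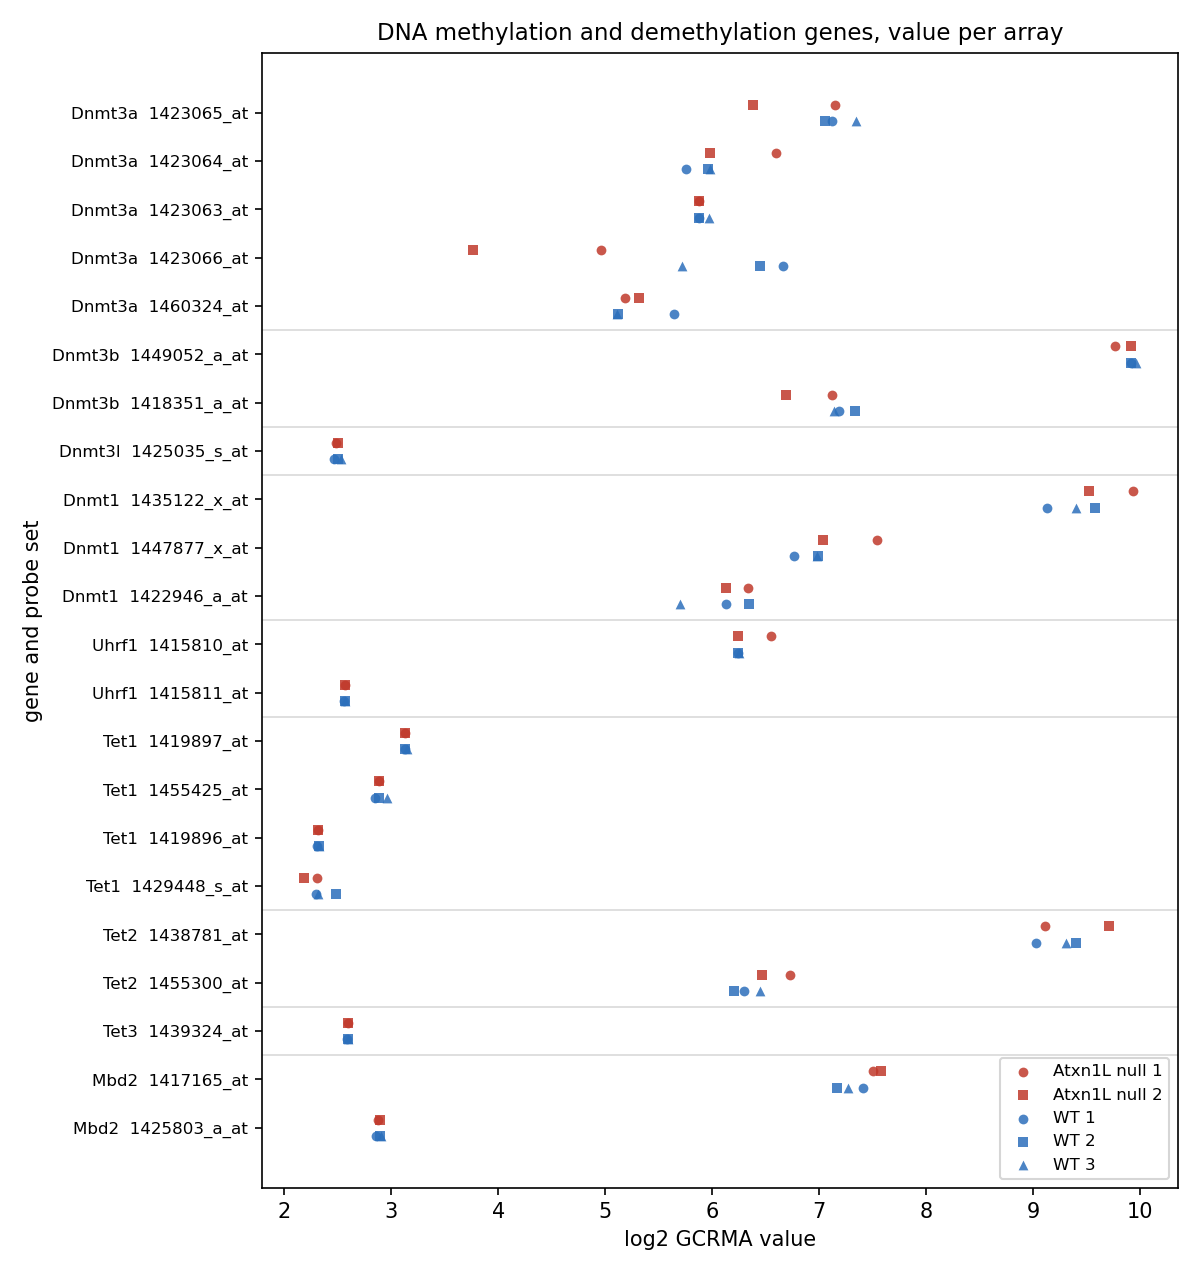
Log2 GCRMA values (horizontal axis) of the 22 probe sets, grouped by gene (vertical axis), with a point per array and the 2 Atxn1L null arrays above the 3 WT arrays in each row. Dnmt3a 1423066_at is the row in which the null points, at 4.96 and 3.76, lie farthest from the WT points, while Tet1, Tet3 and Dnmt3l reach at most 3.14 on any array.

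Dnmt3a, which places new methyl marks and restrains HSC self-renewal, was lower in null HSCs on 1 of its 5 probe sets, and the other 4 did not pass and differed in sign. 1423066_at read 4.96 and 3.76 in the null pools against 6.67, 6.44 and 5.72 in the WT pools. Both null pools were below every WT pool, although they were 1.20 apart from each other and the WT pools spanned 0.95. The means were 4.36 ± 0.85 (SD, n = 2) in null and 6.27 ± 0.50 (SD, n = 3) in WT HSCs, a log2 difference of -1.91 (standard error 0.52, 95% interval -3.39 to -0.44, limma adjusted p = 0.712), or 3.76-fold. The null mean is under the average of 5 taken here as signal, which this probe set reached through the WT pools alone, so the fold rests on dim null values.

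The second probe set, 1423065_at, read 7.14 and 6.38 in null against 7.12, 7.05 and 7.34 in WT HSCs, so that the second null pool was low and the first was inside the WT range. Its difference was -0.41 (95% interval -1.19 to 0.37). In the other direction, 1423064_at read 6.59 and 5.98 in null against 5.75, 5.96 and 5.98 in WT HSCs, with the first null pool high and the second level with the third WT pool (difference 0.39, 95% interval -0.24 to 1.02). 1423063_at was flat. It gave 5.87 in both null pools and in 2 WT pools and 5.97 in the third WT pool, a difference of -0.032 (95% interval -0.14 to 0.077). 1460324_at read 5.18 and 5.31 in null against 5.64, 5.12 and 5.11 in WT HSCs, where only the first WT pool stood apart (difference -0.042, 95% interval -0.63 to 0.55).

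All 5 Dnmt3a probe sets are annotated to the same sequence accession, so they share a source sequence in the annotation and are not counted as independent readings of the gene. The interval of 1423063_at does not reach a 1.5-fold change in either direction (a log2 difference of 0.58), while those of 1423065_at and 1460324_at reach it downward and that of 1423064_at upward. The narrow interval of 1423063_at rests on tied values, with an SD of 0 in null HSCs and 2 distinct values over the 5 arrays. It is therefore no firm bound on the change. In each array, 1423066_at can be set against the mean of the other 4. That gap was -1.23 and -2.12 in the null pools against 0.57, 0.44 and -0.38 in the WT pools, values that are given without a test because the probe set was singled out by its difference. The mean of the other 4 was 6.20 and 5.89 in the null pools and 6.10, 6.00 and 6.10 in the WT pools, with the first null pool above and the second below all WT pools.

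**Figure D2:**
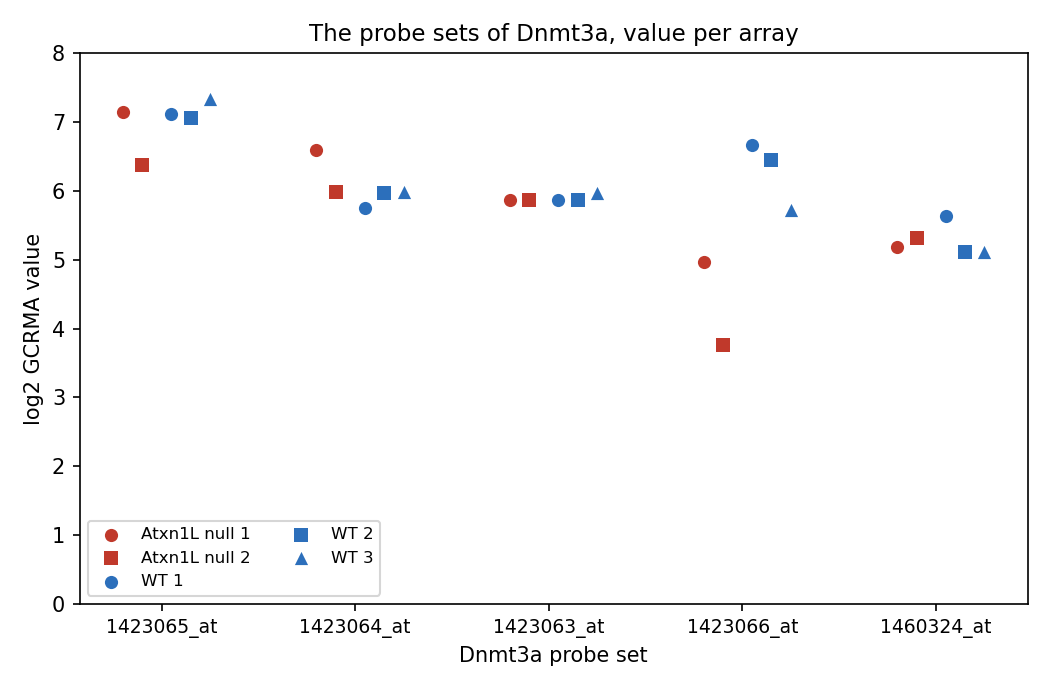
Log2 GCRMA values (vertical axis) of the 5 Dnmt3a probe sets (horizontal axis), a point per array, with the Atxn1L null arrays left of the WT arrays. The genotypes are separate on 1423066_at alone, where the null arrays read 4.96 and 3.76 and the WT arrays 5.72 to 6.67.

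The call on 1423066_at ended without the first WT pool (difference -1.72), without the second (-1.83) or without the second null pool (-1.31), with the difference below 0 each time. Read by the mean of its 5 probe sets, Dnmt3a differed by -0.40 and did not pass. The null pools also had a larger excess of 3' over 5' signal on the Gapdh and beta-actin control transcripts. For Gapdh the 5' signal itself was below every WT pool in both null pools. For beta-actin the 5' signal of the first null pool (5.75) was above that of the first WT pool (5.64). The 3' control value exceeded the 5' value by 7.33 and 7.21 in null against 5.89, 6.02 and 5.92 in WT pools for Gapdh, and by 7.43 and 7.28 in null against 6.71, 6.60 and 6.40 in WT pools for beta-actin. Where on the Dnmt3a transcript each probe set lies is not in the annotation used here. The part of this shift in the Dnmt3a result, or in those of the other genes, was not tested.

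The genes whose pattern over the 5 arrays was most like that of 1423066_at were sought among 3105 probe sets of other single genes with a range of at least 1, by the mean absolute difference between values centred on each probe set's own mean. Rnf5, an E3 ubiquitin ligase of the endoplasmic reticulum, was the closest at 0.048, with 5.06 and 3.86 in null against 6.72, 6.46 and 5.65 in WT HSCs. The next were Ifngr2, a chain of the interferon gamma receptor (0.22), the kinase gene Mast2 (0.23), the splicing regulator Tra2a (0.23) and Tcf25 (0.26). Their differences were -1.83 for Ifngr2, -1.69 for Mast2, -1.89 for Tra2a and -1.37 for Tcf25, and those of Rnf5, Mast2 and Tra2a passed the criterion. Since the genes were picked for likeness to a passing probe set, their low null values and these calls follow from the choice.

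Dnmt3b, the second de novo methyltransferase, passed on neither of its probe sets. 1449052_a_at read 9.76 and 9.92 in null against 9.92, 9.92 and 9.96 in WT HSCs, so that the first null pool was low and the second was level with WT (difference -0.090, 95% interval -0.24 to 0.063). 1418351_a_at read 7.12 and 6.69 in null against 7.18, 7.33 and 7.13 in WT HSCs. Here both null pools were below every WT pool, the first by a small margin (difference -0.31, 95% interval -0.76 to 0.14). Dnmt3l had its single probe set at 2.47 to 2.53 on all arrays.

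Dnmt1, the maintenance methyltransferase on which HSC self-renewal depends, had a positive difference on all 3 probe sets, none of which passed. 1435122_x_at read 9.93 and 9.52 in null against 9.13, 9.58 and 9.39 in WT HSCs, with the first null pool above and the second within the WT range (difference 0.36, 95% interval -0.22 to 0.94). 1447877_x_at read 7.54 and 7.04 in null against 6.77, 6.99 and 6.97 in WT HSCs, with no overlap between the genotypes (difference 0.38, 95% interval -0.15 to 0.90). 1422946_a_at read 6.34 and 6.13 in null against 6.13, 6.35 and 5.70 in WT HSCs, with full overlap (difference 0.17, 95% interval -0.48 to 0.83). The ending of the first 2 identifiers, _x_at, marks probe sets that can cross-hybridize with other transcripts, and 1422946_a_at is the only Dnmt1 probe set without it.

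Uhrf1, which recognizes hemimethylated DNA and brings Dnmt1 to it, had 1 probe set with signal. 1415810_at read 6.55 and 6.24 in null against 6.24, 6.24 and 6.25 in WT HSCs (difference 0.15, 95% interval -0.14 to 0.44). The first null pool was the only array that stood apart, and the other 4 were nearly equal. The same pool was the highest of the 5 arrays on both of these _x_at probe sets.

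Genes of S phase and division, whose activity Dnmt1 and Uhrf1 are known to follow, were read beside them. All 11 measured members of that list, which was written with earlier results of these data known, had a positive difference. Over the 18193 genes read by their brightest probe set, 8245 did. The medians were 0.42 for the list and -0.0019 for all genes. Summed log2 values of the list were 105.1 to 105.2 in null against 98.4 to 102.3 in WT pools. The replication genes Lig1 and Pcna, listed among the maintenance partners below, differed by -0.34 and 0.052. One of the 11 passed, the proliferation marker Mki67, at 10.71 and 10.41 in null against 9.75, 9.77 and 9.59 in WT HSCs (difference 0.86, standard error 0.12, limma adjusted p = 0.384), while 3.00% of all genes passed in either direction. Mcm5 and Mcm6, subunits of the replicative helicase, differed by 0.43 and 0.50 without passing. The null pools were close to each other in the summed values of the list. On Dnmt1 1435122_x_at and Uhrf1 1415810_at, by contrast, only the first null pool lay above every WT pool. The first WT pool was the lowest array on both Dnmt1 _x_at probe sets. The part of cell cycle activity in the Dnmt1 and Uhrf1 values was not tested.

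Tet2, the dioxygenase whose loss expands HSCs, was the only Tet gene with signal, and its probe sets overlapped or nearly met between the genotypes. 1438781_at read 9.11 and 9.71 in null against 9.02, 9.40 and 9.30 in WT HSCs, with the second null pool the highest of all and the first near the lowest (difference 0.17, 95% interval -0.51 to 0.84). 1455300_at read 6.72 and 6.46 in null against 6.30, 6.21 and 6.45 in WT HSCs. The null pools were above the WT pools there, but the second null pool exceeded the third WT pool by little (difference 0.28, 95% interval -0.059 to 0.61). The 4 Tet1 probe sets read 2.19 to 3.14 and the Tet3 probe set 2.58 to 2.60 over the 5 arrays.

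Mbd2, the methyl-CpG reader, was slightly higher in the null pools on its bright probe set. 1417165_at read 7.50 and 7.57 in null against 7.40, 7.16 and 7.27 in WT HSCs, so that both null pools were above every WT pool. The means were 7.54 ± 0.052 (SD, n = 2) in null and 7.28 ± 0.12 (SD, n = 3) in WT HSCs, a difference of 0.26 (standard error 0.085, 95% interval 0.017 to 0.50, limma adjusted p = 0.838). That is 1.20-fold, below the 1.5-fold that the criterion asks for, and this was the other member probe set at an unadjusted p of 0.05 or less. It no longer was with a variance trend, without dim probe sets, with the replicate block, or without any single pool other than the first WT pool, with differences of 0.20 to 0.30 in these fits. The other probe set, 1425803_a_at, read 2.86 to 2.90 on all 5 arrays.

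**Figure D3:**
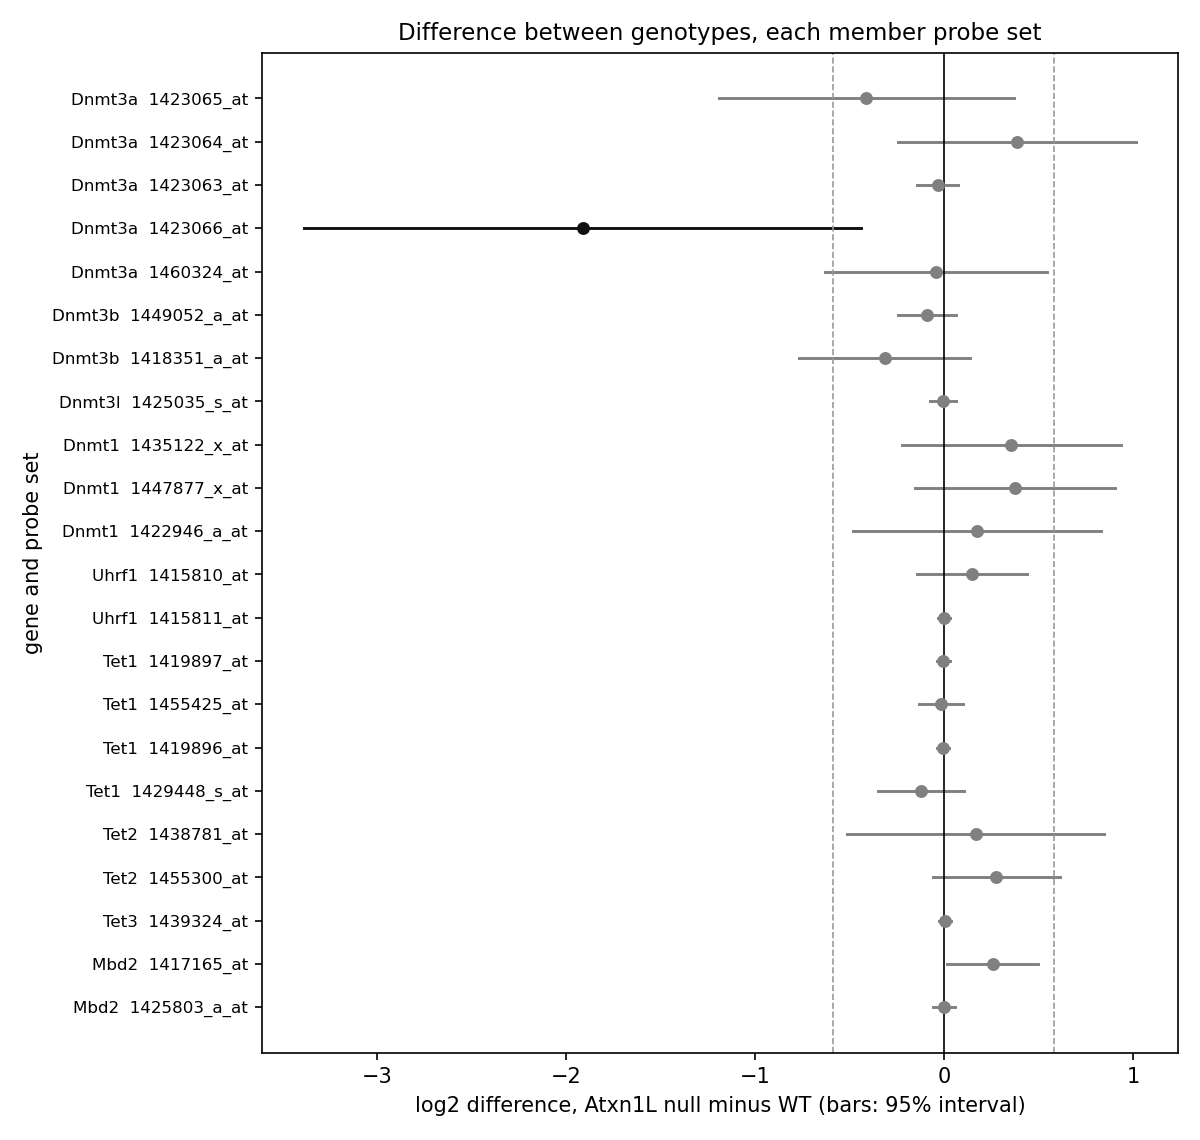
Log2 difference, Atxn1L null minus WT (horizontal axis), of each of the 22 probe sets (vertical axis), with the 95% interval of limma as a bar and dashed lines at a 1.5-fold change. The interval of Dnmt3a 1423066_at runs from -3.39 to -0.44 and that of Mbd2 1417165_at from 0.017 to 0.50, and those of the other 20 include 0.

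The 2 null pools did not move together across the members. Among the 14 probe sets with signal, the first null pool was the single highest array on 5 and the single lowest on 1, while the second null pool was the highest on 2 and the lowest on 3. The second null pool was the lowest array on Dnmt3a 1423065_at, Dnmt3a 1423066_at and Dnmt3b 1418351_a_at. The first was the highest on Dnmt3a 1423064_at, on 1435122_x_at and 1447877_x_at of Dnmt1, on Uhrf1 1415810_at and on Tet2 1455300_at. For 1438781_at of Tet2 the null pools were 0.60 apart, beyond the WT range of 0.38.

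Other genes of the pathway were read by their brightest probe set in 6 lists, of partners of maintenance, methyl-CpG readers, factors that target de novo methylation, base excision and demethylation factors, cofactors and regulators of the Tet enzymes, and enzymes of methyl donor supply. Of 51 listed genes 43 had a probe set of their own, and 3 of them were lower and 0 higher in null HSCs at the criterion, against 1.43% lower and 1.57% higher over all genes. Signal was present for 33 of the 43, as for 7236 of all 18193 genes. Among all probe sets with signal, 7.44% passed in either direction. Differences of the 43 genes were above 0 for 21 and below 0 for 22, with a median of -0.0080.

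Gadd45g, a stress-induced growth arrest gene that has also been tied to active demethylation, fell the most. It read 8.16 and 8.15 in null against 9.53, 9.23 and 9.50 in WT HSCs. The null pools were nearly equal and lay more than 1 below every WT pool. The means were 8.16 ± 0.0064 (SD, n = 2) in null and 9.42 ± 0.17 (SD, n = 3) in WT HSCs, a difference of -1.26 (standard error 0.11, 95% interval -1.58 to -0.94, limma adjusted p = 0.308), or 2.39-fold lower, and the call held without any 1 of the 5 pools. Its relative Gadd45b passed on 1450971_at, with 8.21 and 7.58 in null against 8.84, 8.80 and 8.51 in WT HSCs (difference -0.82). It did not pass on the other bright probe set 1449773_s_at, by which the list read it (difference -0.37). Parp1, a sensor of DNA strand breaks, likewise passed on 1422502_at alone, with 4.95 and 4.89 in null against 5.89, 5.43 and 5.39 in WT HSCs (difference -0.65), while 1435368_a_at, by which the list read it, differed by 0.30 in the other direction without passing. Gadd45a read 4.37 and 4.74 in null against 5.22, 4.76 and 4.69 in WT HSCs, with a difference of -0.33 that did not pass.

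Nsd1, a histone H3 methyltransferase whose mark is bound by Dnmt3a, was lower in null HSCs on 1435088_at. It read 6.89 and 6.70 in null against 7.81, 7.28 and 7.67 in WT HSCs, with no overlap (difference -0.79 with a standard error of 0.19, limma adjusted p = 0.648). On its other 3 probe sets Nsd1 differed by -0.0023 to 0.18. Of these, 1420881_at and 1456916_at were dim, with averages of 3.02 to 3.08, and 1440972_at averaged 5.08 in null and 4.91 in WT HSCs. At such signal they say little about a change in Nsd1. Idh2, the mitochondrial enzyme that makes the α-ketoglutarate needed by the Tet enzymes, read 7.76 and 7.92 in null against 8.57, 8.20 and 8.93 in WT HSCs (difference -0.72 with a standard error of 0.25, limma adjusted p = 0.867). Its other probe set, 1450048_a_at, was lower by a smaller amount, -0.30, again with the null pools (8.02 and 7.91) below the WT pools (8.21, 8.21 and 8.36). The calls of Nsd1 and Idh2 each held without the second WT pool and ended without any other single pool. With array weights both calls ended (Nsd1 at -0.48, Idh2 at -0.36), and that of Idh2 also ended with quantile normalization applied anew (-0.71) and with the replicate block (-0.54).

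Among the lists in which nothing passed, the brightest maintenance partners were the replication clamp Pcna, at 12.57 and 12.56 in null against 12.82, 12.49 and 12.23 in WT HSCs, and Usp7, a deubiquitinase that stabilizes Dnmt1 and Uhrf1, at 11.64 and 11.52 in null against 11.41, 11.45 and 11.24 in WT HSCs. The null pools overlapped WT for Pcna and were above WT for Usp7 (difference 0.21). Of the 6 maintenance partners, 3 had a positive and 3 a negative difference. The genotypes were separate without passing for the chromatin remodeler gene Hells (difference 0.50) and, with null HSCs below WT HSCs, for Dmap1, whose product binds Dnmt1 (-0.24), and the DNA ligase gene Lig1 (-0.34). Such separation is common, and 33.0% of all probe sets with signal showed it. The readers of the zinc finger type Zbtb4 and Zbtb38 differed by -0.085 and -0.15. Of the methyl donor enzymes, Ahcy, which removes the inhibitory product of methylation reactions, differed by -0.20 and Shmt2 by 0.11.

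**Figure D4:**
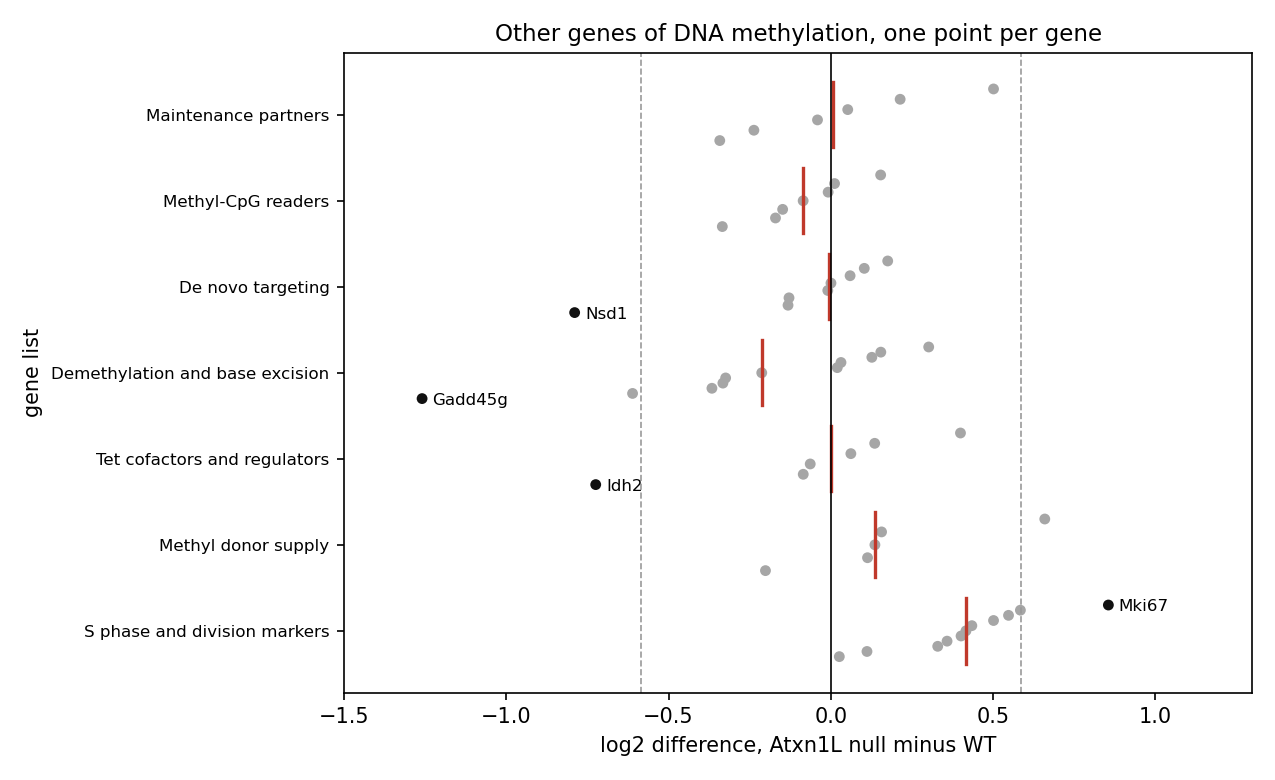
Log2 difference, Atxn1L null minus WT (horizontal axis), of other pathway genes and of S phase and division markers by list (vertical axis), with a point per gene read by its brightest probe set, a red bar at the list's median, dashed lines at a 1.5-fold change and black points for genes past the criterion. Gadd45g (-1.26), Nsd1 (-0.79) and Idh2 (-0.72) lie to the left and Mki67 (0.86) to the right, and all 11 points of the S phase and division list are above 0.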

How the data were processed

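RNA of sorted HSCs, pooled for each array and amplified by T7-based in vitro transcription, was hybridized to Affymetrix MOE430.2 arrays, 2 with Atxn1L null and 3 with WT samples. Per the methods, the authors ran GCRMA on the probe intensities, and the deposited values, on the log2 scale as their range shows, are background-corrected, quantile-normalized and summarized per probe set. The sources used here do not give its version.

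After 64 control probe sets had been left out, 45037 probe sets were fitted with limma 3.58.1 (R 4.3.3, lmFit and eBayes at their defaults, a mean per genotype). The thresholds (p up to 0.05, change of 1.5-fold or more) were the study's, applied to the unadjusted p, and Benjamini-Hochberg adjustment ran over all probe sets tested. No dim probe set was removed. Gene names came from the annotation of the platform (34945 with 1 gene, 932 with several, 9160 with none), and promoter windows came from RefSeq (GRCm38.p6). Named genes were every member probe set, the passing and the brightest genes of the pathway lists, and the 5 genes most like a passing member. The other named list members were chosen after their values were seen. Members and lists were chosen with earlier results of these data known. The fit was tested on simulated data. Alternatives tried were array weights, a robust fit with a variance trend, median centring, quantile normalization applied anew, other criteria, averaging a gene's probe sets, dropping probe sets that are dim or may cross-hybridize, blocking on the replicate number, and omitting single arrays. With 5 arrays, precision is limited.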

Additional observations from a re-analysis of the deposited data

How the results depend on the processing

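The count of member probe sets past the criterion stayed at 1 with a variance trend, array weights, quantile normalization applied anew, median centring, the replicate block, and without dim or cross-hybridizing probe sets, and was 0 to 2 when single arrays were omitted. It was 0 without the first or the second WT array. Without the first null array it was 2, through Dnmt3a 1423066_at and 1423065_at, and without the second null array it was 2 as well, through Dnmt3a 1423064_at and Dnmt1 1447877_x_at, both higher in null HSCs. By p alone 2 member probe sets passed and by an adjusted p under 0.05 none (0), and over all probe sets 2517 and 1 passed in place of 1074. With 1 array left out, 709 (without the first WT array) to 1948 (without the second null array) of all probe sets passed. The difference of Dnmt3a 1423066_at ran from -2.51 to -1.31.

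The count of pathway genes past the criterion, 3, was 1 with array weights, 1 with the mean of a gene's probe sets, 0 by an adjusted p under 0.05, and 1 to 3 with 1 array left out, with the lowest count without the third WT array or the first null array. Differences near 0 changed sign. Dnmt3a 1460324_at was at 0.13 with array weights and from -0.13 to 0.13 when single arrays were omitted, and Dnmt1 1422946_a_at was at -0.12 with array weights, at -0.0055 with the replicate block, and from -0.0055 to 0.32 when single arrays were omitted. When single arrays were omitted, Uhrf1 1415810_at ran from -0.0045 to 0.30 and Tet2 1438781_at from -0.13 to 0.47. The cause was not tested. The labels do not say whether the replicate numbers pair the pools. Deviations of same-numbered arrays correlated at -0.054 and -0.30 over probe sets with signal, which cannot decide this with 2 null pools. With the number as a block, 1 member probe set, 762 of all probe sets and 2 pathway genes passed.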
